A study of Mus musculus with 574 samples.

Results

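Dopamine neurons and Barhl1 neurons were compared as single cells of the mouse ventral midbrain at E11.5, E12.5 and E13.5 (E, embryonic day). Cells were first kept as neurons where Stmn2, a stathmin gene of young neurons, reached an RPKM of at least 10 (reads per kilobase of transcript, scaled to sequencing depth). A neuron was placed in the dopamine class where Th and Nr4a2 both reached 10 and Barhl1 did not. It was placed in the Barhl1 class where Barhl1 reached 10 and Th and Nr4a2 did not both do so. The classes held 37 dopamine and 96 Barhl1 cells of 306 neurons and 413 cells of these stages, in a series of 574 samples. By stage, from E11.5 to E13.5, dopamine cells numbered 7, 10 and 20, and Barhl1 cells 12, 41 and 43.

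All embryos, in both classes and at every stage, were of strain C57BL/6 and heterozygous for Lmx1a-EGFP, a green fluorescent protein (GFP) reporter of the LIM homeobox gene Lmx1a. Full-length cDNA libraries were made from single cells with Smart-seq2. A further set of libraries was made from pools of 100 cells, of which the 6 GFP positive and 6 GFP negative pools of E13.5 were used here. The labels tie no cell or pool to an embryo or litter and give the single cells no GFP class. Each stage of single cells is therefore a single sample, and differences between the classes are described without a test, as the size of a difference and its sign at each stage. The study asked how the lineage of midbrain dopamine neurons relates to that of the subthalamic nucleus.

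Midbrain dopamine neurons arise from the floor plate under Lmx1a, Lmx1b and Foxa2, and then require Nr4a2, Pitx3 and En1 to acquire and keep the dopamine phenotype. They make dopamine with Th and Ddc, load it into vesicles with Slc18a2 and recover it with Slc6a3. Neurons of the subthalamic nucleus use glutamate, which Slc17a6 loads into vesicles, and express the homeobox gene Barhl1 while they form.

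The 4 genes of the rule chose the cells, so their levels are a description only. In dopamine cells Th was 10.9 to 6396 RPKM (median 1108) and Nr4a2, an orphan nuclear receptor gene, 24.5 to 3517 RPKM (median 593), while Barhl1 did not exceed 2.22 RPKM. In Barhl1 cells Barhl1 was 19.1 to 5914 RPKM (median 619.9). The Barhl1 limit fell in a gap between the values inside and outside it. So did the Th and Nr4a2 limits in neurons that had the other of these 2 genes and lacked Barhl1. The highest Barhl1 value under the limit in a neuron outside both classes was 4.96 RPKM. The highest Th value under the limit in a neuron with Nr4a2 and without Barhl1 was 3.33 RPKM. In Barhl1 cells the Th and Nr4a2 limits had no such gap, as limits of 5 RPKM left 95 of 96 in the class. Limits of 20 RPKM left 35 of 37 dopamine cells. A further 28 cells had Barhl1 but Stmn2 of at most 6.41 RPKM and were left out, whereas 0 cells met the Th and Nr4a2 limits without Stmn2. Dopamine cells made up 13.46% of neurons at E11.5 (exact 95% interval 5.59 to 25.8%), 7.41% of those of E12.5 (3.61 to 13.2%) and 16.8% of those of E13.5 (10.6 to 24.8%). Barhl1 cells made up 23.1% (12.53 to 36.8%), 30.4% (22.8 to 38.9%) and 36.1% (27.5 to 45.4%). The Barhl1 limit rests on 1 gene and the dopamine limit on 2, so these shares are not like for like, and all intervals cover counting error only.

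The classes were checked against other markers of their cell types. Of the dopamine markers outside the rule, Ddc reached 10 RPKM in 33 of 37 dopamine cells, Slc18a2 in 27 of 37, Pitx3 in 26 of 37, En1 in 24 of 37, Slc6a3 in 9 of 37 and Aldh1a1 in 4 of 37. Of the subthalamic markers, Foxp2 did so in 73 of 96 Barhl1 cells, Slc17a6 in 63 of 96, Foxp1 in 45 of 96 and Barhl2 in 33 of 96. Foxp2 and Slc17a6 were also present in 35 of 37 and 18 of 37 dopamine cells, so these markers do not set the classes apart. The deposited values carry no read counts, and the number of genes at an RPKM of at least 1 stood in for depth. At E11.5 it had a median of 2844 in dopamine cells and 4062.5 in Barhl1 cells. At E12.5 the medians were 4338 in dopamine and 4105 in Barhl1 cells, and at E13.5 they were 4791 in dopamine and 4235 in Barhl1 cells. The part of this gap in the E11.5 values below was not tested.

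Across all genes, 405 of 9278 were called higher in dopamine cells (4.37% of genes tested) and 458 higher in Barhl1 cells (4.94%). These shares are the background for the counts of listed genes below. The lists were chosen with earlier results of these data known and hold some of the named genes. Their counts beside these shares are thus a description only. A gene was tested where it reached 10 RPKM in at least 10 cells of the classes, counted together. It was called where the difference between class means of log2(RPKM + 1), dopamine minus Barhl1, was at least 1 in size on the mean over 3 stages and had the same sign at each. A gene confined to dopamine cells thus had to reach that level in 10 of 37 cells, and one confined to Barhl1 cells in 10 of 96. The filter was stricter on the dopamine side, so counts of each side, here and in the lists below, are not like for like. Without this filter 414 genes were called higher in dopamine and 458 higher in Barhl1 cells. The median difference of all genes was -0.09. A gene is called present in a cell below where it reached 10 RPKM. In simulated data the call by size also called genes that had no difference, so a call is not a test result. Without E11.5 the counts were 830 higher in dopamine and 415 higher in Barhl1 cells, without E12.5 they were 523 and 829, and without E13.5 they were 526 and 1043. Fewer stages leave fewer signs to match. In these settings all 20 named dopamine genes were called again except 3 lost without E13.5. All 20 named Barhl1 genes were called again except 1 lost without E11.5. They were chosen in these same cells for large differences, so their being called again was largely fixed by that choice.

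**Figure D1:**
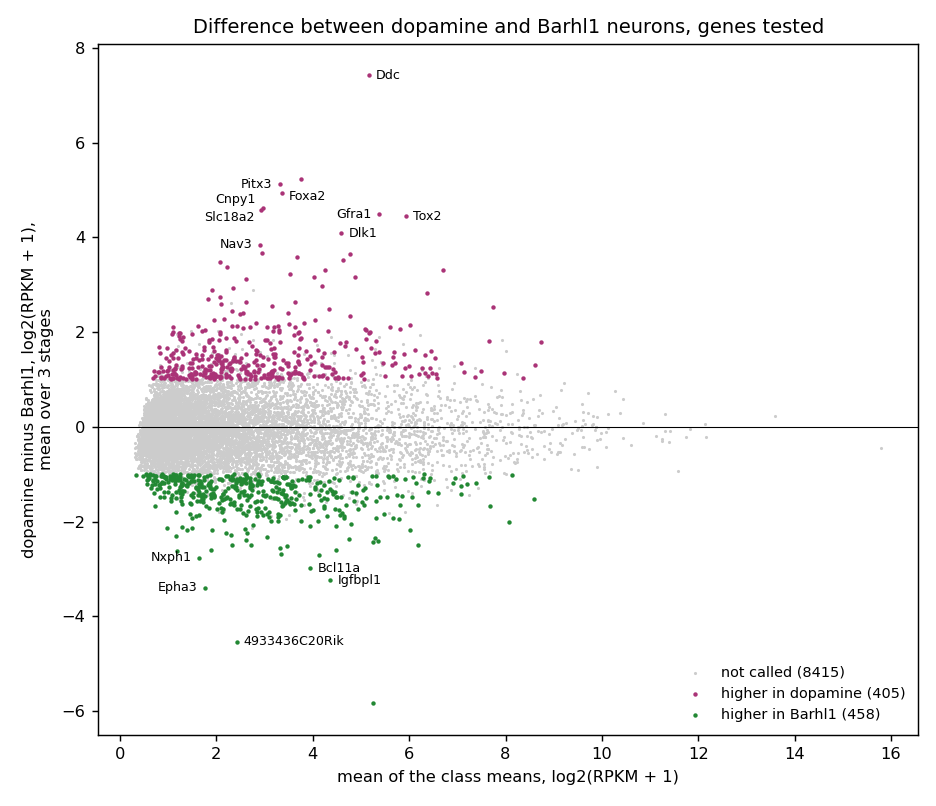
Difference between dopamine and Barhl1 cells for each of the 9278 genes tested, as dopamine minus Barhl1 of log2(RPKM + 1) on the mean over 3 stages (y axis), against the mean of the class means on the same scale (x axis). Coloured points are the 405 genes called higher in dopamine and the 458 called higher in Barhl1 cells, with Ddc at 7.42 as the highest point and 4933436C20Rik at -4.53 among the lowest. Labels name some of the genes with the largest differences.

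Ddc and Slc18a2, of the dopamine pathway, were among the genes with the largest differences on the dopamine side. Of 12 listed genes of the pathway 7 passed the filter on low values besides Th. Of these 4 were called higher in dopamine cells and 0 higher in Barhl1 cells, with a median difference of 2.12. Ddc, which encodes the decarboxylase that turns L-DOPA into dopamine, was 0 to 2352 RPKM (median 1013) in dopamine cells, against 0 to 688 RPKM (median 0.491) in Barhl1 cells. Its differences were 6.98, 7.37 and 7.91 at E11.5, E12.5 and E13.5 (mean 7.42, SD over stages 0.47), the largest mean of any gene outside the rule. The classes overlapped, since 12 of 96 Barhl1 cells reached 10 RPKM, and Ddc was listed at 0 in all 12 Barhl1 cells of E11.5. Slc18a2, the vesicular monoamine transporter gene, was 0 to 1187 RPKM (median 70.8) in dopamine cells and 0 to 108.9 RPKM (median 0) in Barhl1 cells, a mean difference of 4.57.

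A Ddc promoter is shown because it held the only match to AAAGGTCA, the site that Nr4a2 binds as a monomer, among the promoters searched. These were of 17 of 22 genes, the 20 named dopamine genes with Th and Nr4a2. Another Ddc start, with its window at 11890359-11890658, had no match. The match is in capitals, as its reverse complement. The sequence runs 5′ to 3′ on the minus strand of GRCm38.p6, from 250 bases before to 50 after the RefSeq gene start.
Ddc, chr11:11898095-11898394: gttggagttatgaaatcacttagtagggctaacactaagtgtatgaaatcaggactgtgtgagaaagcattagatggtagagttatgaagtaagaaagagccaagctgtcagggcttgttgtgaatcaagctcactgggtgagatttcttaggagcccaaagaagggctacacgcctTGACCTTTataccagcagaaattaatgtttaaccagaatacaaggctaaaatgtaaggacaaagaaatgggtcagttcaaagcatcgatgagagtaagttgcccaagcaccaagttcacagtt

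Other genes of the pathway were present in fewer dopamine cells. Gch1, whose product starts the synthesis of the cofactor of Th, reached 10 RPKM in 0 of 7, 4 of 10 and 8 of 20 dopamine cells from E11.5 to E13.5, against 1 of 96 Barhl1 cells over the stages. Slc6a3, the dopamine transporter gene, was at that level in 0 of 7, 1 of 10 and 8 of 20 dopamine cells, and in 0 of 96 Barhl1 cells (95% interval up to 3.77%). It reached that level in fewer than 10 cells in all and so was not among the genes tested.

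**Figure D2:**
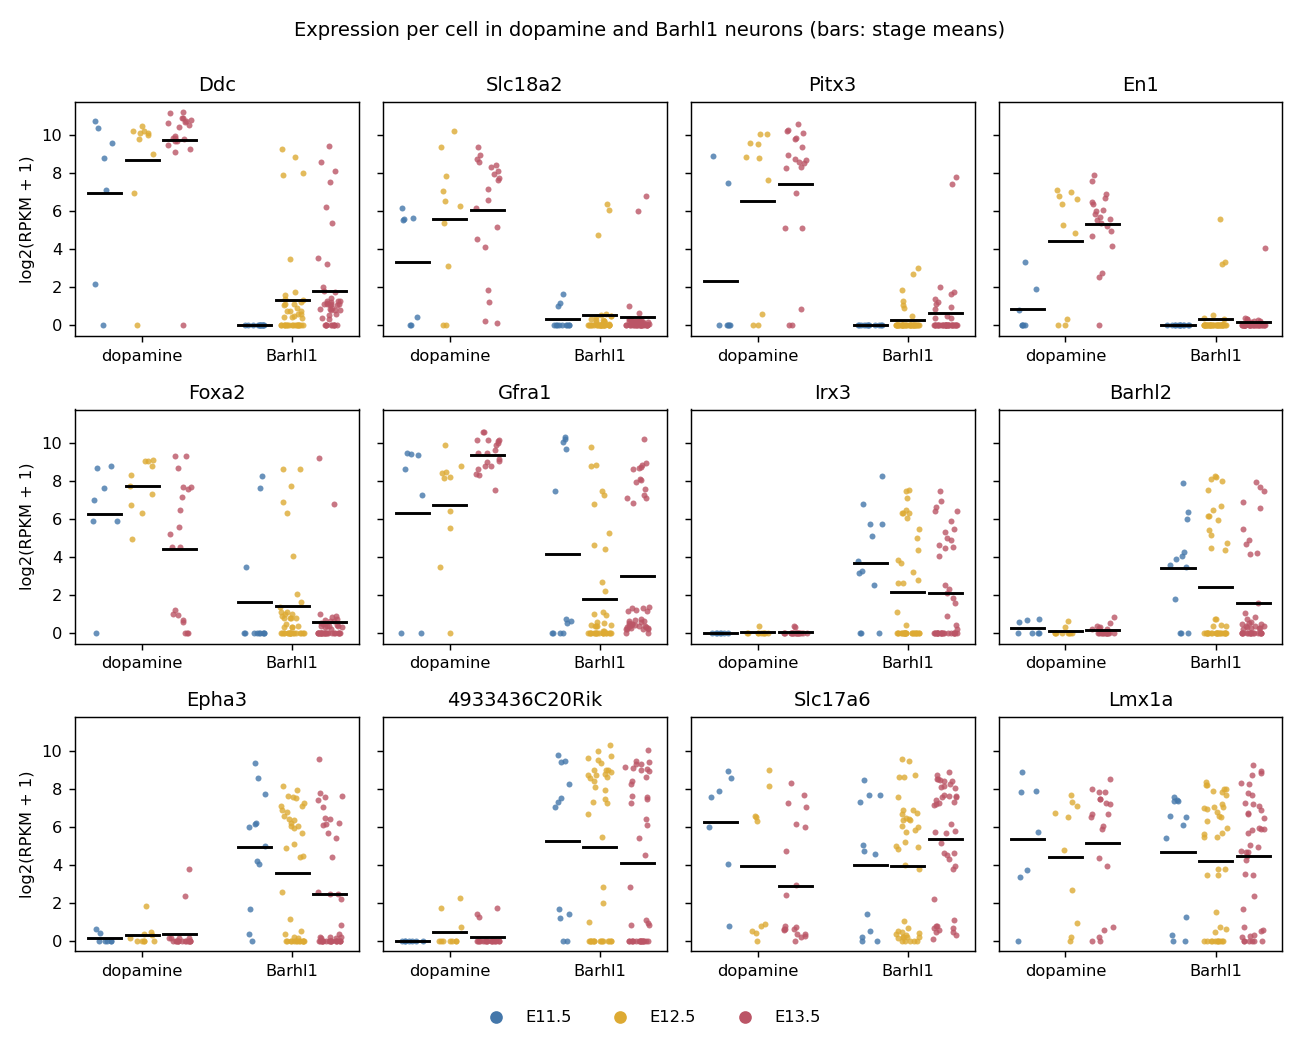
Level of 12 genes in each dopamine and Barhl1 cell as log2(RPKM + 1) (y axis), by stage (colour), with horizontal bars for the mean of each stage. Ddc, Slc18a2, Pitx3, En1, Foxa2 and Gfra1 lie high in most dopamine cells and near 0 in most Barhl1 cells. Irx3, Barhl2, Epha3 and 4933436C20Rik lie high in part of the Barhl1 cells and near 0 in most dopamine cells, and Slc17a6 and Lmx1a are spread over both classes.

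Transcription factors of the dopamine lineage were divided between those that separated the classes and those that both carried. Of 18 listed factors in the table, 15 passed the filter besides Nr4a2, 5 were called higher in dopamine cells (Pitx3, En1, Lmx1b and Foxa2 among them) and 0 higher in Barhl1 cells, with a median of 0.96. Pitx3, a homeobox gene needed for midbrain dopamine neurons, was 0 to 1566 RPKM (median 372) in dopamine cells, against 0 to 222 RPKM (median 0) in Barhl1 cells, where 2 of 96 cells reached 10 RPKM. It was present in 2 of 7, 7 of 10 and 17 of 20 dopamine cells from E11.5 to E13.5. En1, an engrailed gene of the midbrain and anterior hindbrain, was at 10 RPKM in 0 of 7, 7 of 10 and 17 of 20 dopamine cells and in 2 of 96 Barhl1 cells over the stages. Foxa2, a floor plate forkhead gene, showed a difference at every stage (4.66, 6.34 and 3.80) and was 0 to 633 RPKM (median 105.2) in dopamine cells and 0 to 595 RPKM (median 0) in Barhl1 cells.

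The shared factors included the one that drives the reporter. Lmx1a was present in 70.3% (53.02 to 84.1%) of dopamine cells and 64.6% (54.2 to 74.1%) of Barhl1 cells, against 33.1% (26.1 to 40.8%) of neurons outside both classes, and its differences of 0.70, 0.21 and 0.70 were under 1 at every stage. Foxa1, the forkhead relative of Foxa2, was present in 40.5% (24.8 to 57.9%) of dopamine, 42.7% (32.7 to 53.2%) of Barhl1 and 17.8% (12.3 to 24.4%) of other neurons. The mean difference was 4.93 for Foxa2 and -0.50 for Foxa1, which changed sign between stages (-3.16, 1.71 and -0.06). Lmx1b was called, at a mean of 1.05 close to the limit, and was present in 75.7% of dopamine, 52.1% of Barhl1 and 20.7% of other neurons. Foxp2, a forkhead gene, was present in 94.6% of dopamine, 76.04% of Barhl1 and 44.4% of other neurons. The reporter transcript EGFP was present in 29.7% of dopamine, 31.2% of Barhl1 and 9.47% of other neurons. Intervals of the 2 classes overlapped for Lmx1a, Foxa1, Foxp2 and EGFP, and for each of these the interval of other neurons lay below that of Barhl1 cells. These intervals take cells of 3 stages together and cover counting error only. Their overlap does not show that shares are equal.

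**Figure D3:**
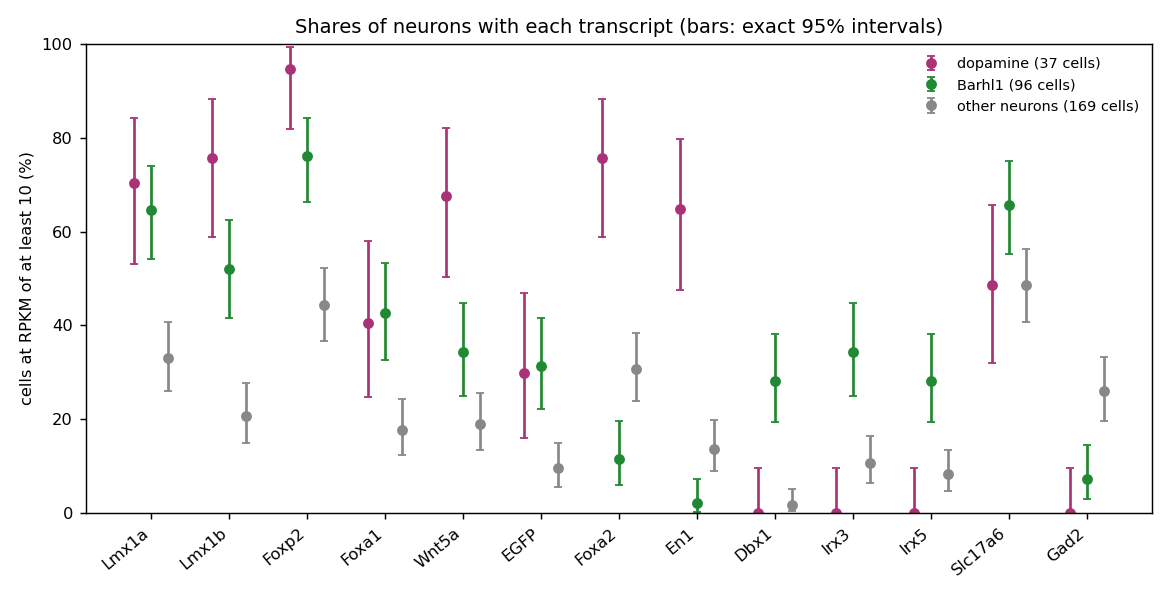
Share of cells at an RPKM of at least 10 (y axis, %) for 13 genes in the 37 dopamine, 96 Barhl1 and all other neurons, with exact 95% intervals as bars. Lmx1a and EGFP stand at similar shares in dopamine (70.3% and 29.7%) and Barhl1 cells (64.6% and 31.2%), whereas Foxa2 and En1 stand higher in dopamine cells and Dbx1, Irx3 and Irx5 higher in Barhl1 cells.

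The remaining named dopamine genes, chosen by the size of their difference, are tied to trophic signalling, vesicles, adhesion and membranes. Gfra1, the co-receptor gene for the trophic factor GDNF, was 0 to 1551 RPKM (median 447) in dopamine cells and 0 to 1279 RPKM (median 0.445) in Barhl1 cells, with differences of 2.17, 4.93 and 6.37. Ret, which encodes the kinase that signals with Gfra1, was present in 0 of 7, 5 of 10 and 7 of 20 dopamine cells and in 1 of 96 Barhl1 cells. Its difference was 0 at E11.5, where every cell of both classes was listed at 0, then 3.52 and 2.35. The smallest difference fell at E11.5 for Dlk1 (0.68, 6.59 and 4.98), a gene of a Delta-like membrane protein. It did so too for Scn3b (0.43, 6.42 and 3.72), a sodium channel beta subunit gene. Scn3b was present in 72.97% of dopamine, 30.2% of Barhl1 and 60.4% of other neurons.

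Several named dopamine genes had a difference above 1 at every stage. Cnpy1, known in zebrafish for a part in FGF signalling at the midbrain-hindbrain boundary, was 0 to 923 RPKM (median 118.5) in dopamine cells and 0 to 404 RPKM (median 0) in Barhl1 cells (4.26, 4.31 and 5.29 over the stages). Tox2, an HMG-box factor gene, was 0.319 to 2002 RPKM (median 545) in dopamine and 0 to 2096 RPKM (median 1.96) in Barhl1 cells, and 42 of 96 Barhl1 cells also carried it. Among other neurons 59.2% had Tox2. Cdk14, a cyclin-dependent kinase gene, had a median of 86.9 RPKM in dopamine and 0.182 in Barhl1 cells (4.33, 3.26 and 3.14). Nav3 (5.72, 4.25 and 1.56), of the neuron navigator family, Chgb (4.75, 4.51 and 1.65), a secretory granule protein gene, and Nrcam (4.81, 2.69 and 1.97), an axonal adhesion gene, had their largest difference at E11.5 and their smallest at E13.5. The others were Fut8 (mean 3.67), B3gat1 (3.31), Dnajc6 (3.22) and Elovl3 (3.49). In that order they encode a fucosyltransferase, the glucuronyltransferase of the HNK-1 carbohydrate, the clathrin-uncoating protein auxilin and a fatty acid elongase. B3gat1 was present in 83.8% of dopamine, 32.3% of Barhl1 and 52.7% of other neurons, and Nrcam in 83.8%, 38.5% and 51.5%. Elovl3 was present in 62.2% of dopamine, 2.08% of Barhl1 and 4.73% of other neurons.

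Elovl3 was counted beside its neighbour Pitx3. It reached 10 RPKM in 23 of the 26 dopamine cells with Pitx3 and in 0 of the 11 without it. The 2 genes lie on opposite strands of chromosome 19 and overlap at their ends in RefSeq on GRCm38, Elovl3 at 46131897-46135694 and Pitx3 at 46135281-46148325. In the GENCODE vM21 annotation, which differs there, they share 10 exonic bases (46135685-46135694). The counting of strand is not given in the sources used here, so reads from the overlap cannot be told apart.

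Other genes were counted in dopamine cells with and without Pitx3. En1 was present in 22 of the 26 cells with Pitx3 and in 2 of the 11 without it, and Cck, a neuropeptide gene, in 16 of 26 and 1 of 11. Chrna6, a nicotinic receptor subunit gene of dopamine neurons, was present in 11 of 26 with Pitx3 and in 0 of 11 without it. Foxa2 was at a similar share in both (20 of 26 and 8 of 11). Cells with Pitx3 came mostly from E13.5 (17 of 26, against 2 from E11.5) and had a median of 4523.5 genes, against 4199 in cells without it, so stage and depth move with this split and their part was not tested.

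**Figure D4:**
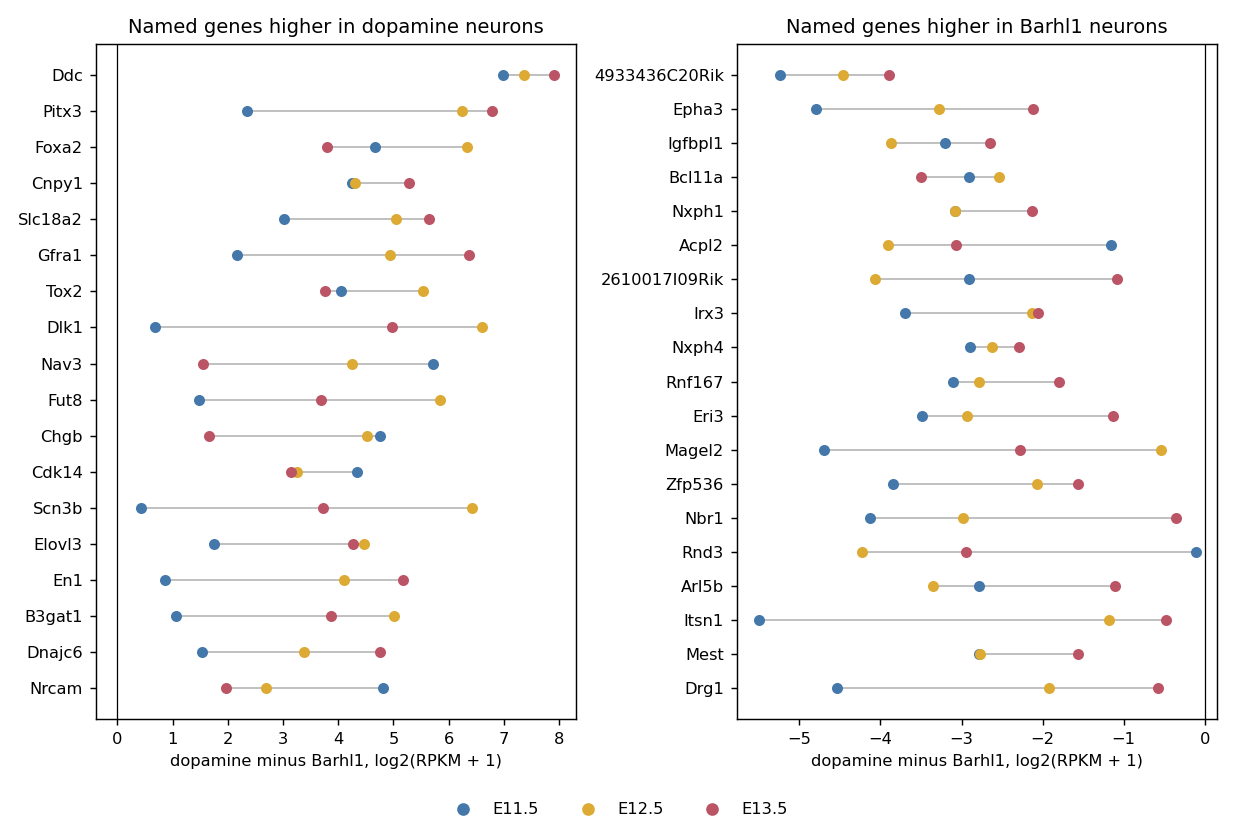
Difference between dopamine and Barhl1 cells at each stage (x axis, dopamine minus Barhl1 of log2(RPKM + 1)) for 18 named genes higher in dopamine cells (left) and 19 higher in Barhl1 cells (right), with 1 point per stage. Pitx3, Dlk1, Scn3b and En1 have their smallest difference at E11.5, while Itsn1 and Drg1 on the right have their largest there (-5.50 and -4.54).

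Homeobox genes of the Barhl1 side included Barhl2 and Dbx1. Of the subthalamic list 9 genes passed the filter besides Barhl1, 3 were called higher in Barhl1 cells (Barhl2 and Dbx1 among them) and 1 higher in dopamine cells (Lmx1b), and the median was -0.51. Barhl2, the paralogue of Barhl1, was at most 0.775 RPKM in dopamine cells and was present in 8 of 12, 15 of 41 and 10 of 43 Barhl1 cells by stage, at up to 307 RPKM. Dbx1, a homeobox gene of progenitors and young neurons, was at most 2.90 RPKM in dopamine cells. It was present in 27 of 96 Barhl1 cells, at up to 1526 RPKM, and in 1.78% of other neurons. Barhl2 and Dbx1 were thus present in a minority of Barhl1 cells.

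Genes of an Iroquois cluster on chromosome 8 formed a further group on the Barhl1 side. Iroquois genes encode homeobox factors that pattern the neural tube. Irx3 was at most 0.290 RPKM in dopamine cells and was present in 33 of 96 Barhl1 cells, at up to 306 RPKM (differences -3.70, -2.13 and -2.06). Irx5 was at most 0.223 RPKM in dopamine cells and was present in 27 of 96 Barhl1 cells (-2.81, -1.95 and -1.63). The noncoding transcript 4933436C20Rik, named Crnde in RefSeq, had a mean difference of -4.53. It was 0 to 3.71 RPKM (median 0) in dopamine cells and 0 to 1265 RPKM (median 54.2) in Barhl1 cells. It was present in 0% (0 to 9.49%) of dopamine, 53.1% (42.7 to 63.4%) of Barhl1 and 17.8% (12.3 to 24.4%) of other neurons. In GRCm38 Crnde lies at 92326031-92356120, with 1675 bases between it and Irx5 (92357796-92361456), and Irx3 (91798511-91801654) and Irx6 (92674289-92680956) flank the pair.

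A promoter each of Barhl1 and Crnde is shown because both held TAATCC, a site of bicoid-type homeodomains. Both Barhl1 windows searched lie inside the gene (28907680-28917984), and none at its upstream end was searched. The Barhl1 window not shown (28916619-28916918) lies upstream of the one shown and had no match. The 2 sequences come from RefSeq in GRCm38.p6 and run 5′ to 3′ on the minus strand over the same window around the start. The match is in capitals, as its reverse complement in Barhl1 and as TAATCC in Crnde.
Barhl1, chr2:28912446-28912745: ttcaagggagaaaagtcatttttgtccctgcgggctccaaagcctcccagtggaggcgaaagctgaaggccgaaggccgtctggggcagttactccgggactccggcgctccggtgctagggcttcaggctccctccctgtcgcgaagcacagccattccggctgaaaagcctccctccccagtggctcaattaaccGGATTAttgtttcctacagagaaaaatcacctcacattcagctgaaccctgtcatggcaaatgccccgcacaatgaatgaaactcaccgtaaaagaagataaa
Crnde, chr8:92356071-92356370: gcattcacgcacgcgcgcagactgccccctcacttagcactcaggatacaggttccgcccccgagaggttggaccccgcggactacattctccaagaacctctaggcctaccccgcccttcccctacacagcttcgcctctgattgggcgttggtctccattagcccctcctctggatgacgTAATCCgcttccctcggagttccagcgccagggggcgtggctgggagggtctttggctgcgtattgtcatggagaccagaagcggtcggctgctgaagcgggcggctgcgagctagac

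These transcripts were also counted together within the 96 Barhl1 cells. Of the 33 cells with Irx3, 27 had Crnde, out of 51 cells with Crnde in all. Crnde was also present in 19 of 27 cells with Irx5 and in 13 of 14 cells with Irx6. Irx3 and Irx5 were found together in 15 cells. Irx1 and Irx2, of the related cluster on chromosome 13, were present in 3 and 5 Barhl1 cells. Barhl1 cells with Crnde had a median of 4278 genes, against 3985 in those without it. Irx3 shares 4.49% of its exonic bases with an antisense partner.

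The other named Barhl1 genes spanned guidance, adhesion and signalling. Epha3, an ephrin receptor gene, was 0 to 12.4 RPKM (median 0) in dopamine cells and 0 to 752 RPKM (median 4.46) in Barhl1 cells, and it was present in 9 of 12, 22 of 41 and 14 of 43 Barhl1 cells by stage. Igfbpl1, a gene of an IGF-binding-like protein of new neurons, was 0 to 772 RPKM (median 0.960) in dopamine cells and 0 to 1362 RPKM (median 163.6) in Barhl1 cells (-3.20, -3.87 and -2.64). Bcl11a, a zinc finger factor gene, was 0 to 257 RPKM (median 0.464) in dopamine cells and 0 to 875 RPKM (median 107.1) in Barhl1 cells (-2.91, -2.53 and -3.50). Epha3 was present in 46.9% (36.6 to 57.3%) of Barhl1 and 11.8% (7.38 to 17.7%) of other neurons, and Bcl11a in 72.9% (62.9 to 81.5%) of Barhl1 and 62.7% (54.96 to 70.03%) of other neurons. The neurexophilin genes Nxph1 and Nxph4, whose products bind neurexins, were present in 2.70% and 35.1% of dopamine cells and in 38.5% and 62.5% of Barhl1 cells. Zfp536, a zinc finger gene, had a mean difference of -2.49 and Acpl2, named Pxylp1 in RefSeq, a xylose phosphatase gene, of -2.71.

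Most named Barhl1 genes had their largest difference at E11.5, where dopamine cells also had fewer genes detected. Crnde (-5.24, -4.46 and -3.89), Epha3, Irx3, Nxph1, Nxph4, Zfp536, Rnf167, Eri3 and Mest were among them. Itsn1, an endocytic scaffold gene, differed by -5.50, -1.18 and -0.48 over the stages, Nbr1, an autophagy receptor gene, by -4.13, -2.98 and -0.36, Drg1, a GTPase gene, by -4.54, -1.92 and -0.58, and Magel2, an imprinted gene, by -4.69, -0.53 and -2.28. Rnd3, a small GTPase gene, had its smallest there (-0.11, -4.23 and -2.94). The rest were Rnf167, Eri3, Arl5b, Mest and the noncoding 2610017I09Rik (Pantr1 in RefSeq), with means from -2.68 to -2.37. These were present in 53.1 to 72.9% of Barhl1 cells and in 42.01 to 66.9% of other neurons. For Eri3 (57.3% of Barhl1 and 59.2% of other neurons), Mest (64.6% and 66.9%) and Magel2 (51.04% and 57.99%) the share was higher in other neurons. It was higher in Barhl1 cells for Itsn1 (43.75% and 39.1%), Drg1 (69.8% and 63.9%), Rnd3 (73.96% and 63.3%) and Nbr1 (81.25% and 66.3%). Mest shares 912 exonic bases (32.9% of its own) with Copg2 on the opposite strand, so reads there cannot be assigned without strand.

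Nr4a2 itself was common in the Barhl1 class. It reached 10 RPKM in 52.1% of Barhl1 cells (95% interval 41.6 to 62.4%), in 8 of 12, 19 of 41 and 23 of 43 from E11.5 to E13.5. Th did so in 1 Barhl1 cell, and 45 Barhl1 cells had neither Th nor Nr4a2. The rule kept cells with both genes out of this class, so the cell with Th lacked Nr4a2 by design. The share of Nr4a2 was shaped by the rule as well and is a description only. Nr4a2 was also present in 60 neurons outside both classes that lacked Th and Barhl1. Irx3 was present in 26 of 50 Barhl1 cells with Nr4a2, against 7 of 46 without it, Slc17a6 in 40 of 50 and 23 of 46, and Lmx1a in 39 of 50 and 23 of 46. Dopamine genes were present in few cells of either kind. Ddc was present in 8 of 50 and 4 of 46, Pitx3 in 2 of 50 and 0 of 46, and Slc18a2 in 2 of 50 and 3 of 46. The median number of genes was 4256.5 with Nr4a2 and 3927 without it, and the part of depth in these counts was not tested. The 45 cells that had neither gene were also taken as the Barhl1 class, on E12.5 and E13.5 only. Then 20 of the 20 named dopamine genes and 16 of the 20 named Barhl1 genes were called again. These genes were chosen for large differences with the same cells included, so this is a description only.

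A further 4 neurons had Th, Nr4a2 and Barhl1 all at 10 RPKM or more and belonged to neither class, 2 at E11.5 and 2 at E12.5. Slc17a6 was 94.8 to 244.5 RPKM in them. Pitx3 was at most 1.92 RPKM and Ddc at most 3.95 RPKM. Th was 13.04 to 1694 RPKM in the same cells.

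Slc17a6 lay on different sides at different stages. It was 0.692 to 493 RPKM (median 188) in dopamine cells and 0 to 353 RPKM (median 23.7) in Barhl1 cells at E11.5. At E12.5 it was 0 to 507 RPKM (median 39.01) in dopamine and 0 to 762 RPKM (median 29.4) in Barhl1 cells, and at E13.5 0 to 316 RPKM (median 0.685) in dopamine and 0.0822 to 469 RPKM (median 69.98) in Barhl1 cells. The differences were 2.29, -0.03 and -2.45. Slc17a6 was present in 6 of 7, 5 of 10 and 7 of 20 dopamine cells by stage, and in 7 of 12, 24 of 41 and 32 of 43 Barhl1 cells. Dopamine cells with Slc17a6 had Ddc in 16 of 18 cells, against 17 of 19 without it, and Chrna6 in 1 of 18, against 10 of 19. Pitx3 was present in 10 of 18 cells with Slc17a6 and 16 of 19 without it, and En1 in 9 of 18 and 15 of 19. Cells with Slc17a6 included 6 of the 7 dopamine cells of E11.5, so stage moves with this split, and its part was not tested. Of 9 glutamatergic genes that passed the filter, Slc17a6 among them, 0 were called higher in dopamine and 2 higher in Barhl1 cells, with a median of 0.06. These were Slc1a2 (-2.07), a glutamate uptake gene, and Grik2 (-2.24), a kainate receptor subunit gene.

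Markers of dopamine subtypes were present in part of the dopamine cells. Of 7 subtype and receptor genes that passed the filter, 2 were called higher in dopamine cells (Gfra1 and Dlk1) and 0 higher in Barhl1 cells, with a median of 1.96. Cck was present in 0 of 7, 5 of 10 and 12 of 20 dopamine cells by stage, and in 0 of 12, 1 of 41 and 7 of 43 Barhl1 cells. Chrna6 was present in 0 of 7, 2 of 10 and 9 of 20 dopamine cells and in 0 of 96 Barhl1 cells (95% interval up to 3.77%). Aldh1a1, a retinaldehyde dehydrogenase gene of a ventral dopamine subtype, was present in 4 of 20 dopamine cells at E13.5, at up to 1365 RPKM, and was listed at 0 in all 96 Barhl1 cells. Every cell of both classes was listed at 0 for these 3 genes at E11.5, so Cck and Chrna6 did not meet the call, and Aldh1a1 did not pass the filter. With 7 dopamine cells at E11.5, 0 of 7 allows a share of up to 40.96% (exact 95% interval).

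Some genes of immature cells lay on the Barhl1 side. Of 9 neurogenic precursor genes that passed the filter 3 were called higher in Barhl1 cells (Neurog2, Nhlh1 and Igfbpl1), and of 7 progenitor genes 2 (Sox9 and Hes5), with 0 higher in dopamine cells in either list and medians of -0.43 and -0.68. Sox9, a gene of neural progenitors and glia, was present in 3 of 37 dopamine cells, 42 of 96 Barhl1 cells and 5.92% of other neurons, at up to 1940.1 RPKM in Barhl1 cells. Hes5, a Notch target gene, was present in 1 of 37 dopamine and 27 of 96 Barhl1 cells. The neurogenic bHLH genes Neurog2 and Nhlh1 were present in 1 of 37 and 6 of 37 dopamine cells and in 13 of 96 and 33 of 96 Barhl1 cells. The 42 Barhl1 cells with Sox9 held 22 of the 27 with Hes5, 25 of the 33 with Nhlh1 and 22 of the 27 with Dbx1. Slc17a6 was present in 25 of these 42 cells and in 38 of the 54 Barhl1 cells without Sox9. The median number of genes was 4224 with Sox9 and 3992.5 without it. Of 4 cell cycle genes that passed the filter 0 were called in either direction, and Mki67, of dividing cells, was present in 3 of 96 Barhl1 cells.

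General neuronal genes were mixed. Of 13 pan-neuronal genes besides Stmn2 that passed the filter, 3 were called higher in dopamine cells (Snap25, Ina and Stmn3) and 1 higher in Barhl1 cells (Elavl4), and the median was 0.69. Elavl4, an RNA-binding protein gene of neurons, had a median of 43.2 RPKM in dopamine and 111.2 RPKM in Barhl1 cells (-2.42, -1.68 and -1.42). Snap25, of the vesicle fusion complex, was present in 62.2% of dopamine and 38.5% of Barhl1 cells (2.67, 0.63 and 1.69).

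Ion channel and adhesion families held called genes on both sides. Over all genes tested 4.37% were called higher in dopamine and 4.94% higher in Barhl1 cells. A count of 1 in these families lies near that background. Of 14 channel genes 3 were called higher in dopamine cells (Scn3b, Kcnd3 and Cacna2d3) and 1 higher in Barhl1 cells (Cacna2d1). The last pair encode auxiliary subunits of calcium channels. Cacna2d3 was present in 56.8% of dopamine and 11.46% of Barhl1 cells (1.73, 3.59 and 3.49). Cacna2d1 was present in 37.8% of dopamine and 73.96% of Barhl1 cells (-1.29, -2.24 and -2.73). Of 13 adhesion genes 1 was called higher in dopamine cells, the presynaptic neurexin gene Nrxn3, and 1 higher in Barhl1 cells. Nrxn3 was 0 to 608 RPKM (median 15.6) in dopamine and 0 to 103.4 RPKM (median 0) in Barhl1 cells (0.69, 2.91 and 4.21).

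Of 24 axon guidance genes 3 were called higher in dopamine cells (background 4.37% of all genes tested). Epha3, 1 of the 24, was called higher in Barhl1 cells, near the background of 4.94%. The same backgrounds hold for the peptide and Wnt counts. Ntn1, the netrin gene, differed by 1.31, 1.44 and 1.63, the receptor gene Nrp2 by 1.25, 2.93 and 0.85 and the ephrin gene Efnb3 by 2.23, 4.13 and 0.70. Of 10 genes listed under peptides and their granules 3 were called higher in dopamine cells (Chga, Chgb and Pcsk1n), with a list median of 1.18. The 2 called higher in Barhl1 cells were the neurexophilin genes Nxph1 and Nxph4, whose products bind neurexins, and no other peptide gene was called there. Of 8 Wnt pathway genes 2 were called on each side. The ligand gene Wnt5a was present in 67.6% of dopamine and 34.4% of Barhl1 cells (0.06, 2.88 and 3.82), and the receptor gene Fzd3 differed by 2.19, 1.87 and 0.71. The Wnt-enhancing ligand gene Rspo2 was present in 5.41% of dopamine and 27.1% of Barhl1 cells (-1.83, -1.79 and -1.26), and Lef1, a factor that acts with beta-catenin, in 2.70% of dopamine and 22.9% of Barhl1 cells (-1.69, -1.83 and -0.96).

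Factors of neighbouring regions and other cell types were checked in both classes. Of 6 diencephalic and hypothalamic genes that passed the filter 4 were called higher in Barhl1 cells (Nkx2-1, Irx3, Irx5 and Uncx) and 0 higher in dopamine cells, with a median of -1.06. Nkx2-1, a hypothalamic homeobox gene, was at most 0.701 RPKM in dopamine cells and was present in 14 of 96 Barhl1 cells, at up to 693 RPKM. Uncx was common to both classes (70.3% of dopamine and 86.5% of Barhl1 cells) and differed mainly at E13.5 (-0.17, -0.17 and -2.76). Of the genes for GABA synthesis, Gad1 was listed at 0 and Gad2 at up to 0.405 RPKM in dopamine cells, and they were present in 5 of 96 and 7 of 96 Barhl1 cells. The summed RPKM of 12 GABAergic genes had a median of 0.105 in dopamine cells (0 to 139.7) and 0.295 in Barhl1 cells (0 to 1771). Summed levels of the red nucleus, serotonergic, red blood cell, endothelial, microglial and mesenchymal lists had a median of 0 in both classes. The microglial genes C1qa, C1qb, C1qc, Aif1, Cx3cr1 and Tyrobp were listed at 0 in every cell of both classes. The sum of 12 progenitor genes had a median of 178.7 RPKM in dopamine cells (0 to 3610.4) and 162.7 in Barhl1 cells (0 to 18007). That of 12 cell cycle genes had a median of 2.01 in dopamine cells (0 to 1033) and 7.41 in Barhl1 cells (0 to 3364). The part of these other transcripts in the differences above was not tested. Of 6 early response and heat shock genes, 2 were called higher in dopamine cells, Fos (2.80, 0.72 and 0.05) and Dnajb1 (2.65, 0.59 and 0.15), both largest at E11.5. Without E11.5 the mean of Fos was 0.39, and on the same later stages it was -0.16 against Barhl1 cells without Nr4a2 and Th.

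The named genes were then read in the pools of E13.5, which took no part in choosing them. The sort was for the Lmx1a reporter, whose transcript stood at similar shares in both classes, so these pools do not set the classes against each other. Pools were compared with limma on log2(RPKM + 1), with p-values adjusted by the Benjamini-Hochberg method over 15871 genes. As nothing ties a pool to an animal or litter, the p-values reflect pool-to-pool spread alone, part of which may be technical. Of the 20 named dopamine genes 14 were higher in GFP positive pools (background 3.42% of all genes) and 0 lower (3.74%), with a median log2 difference of 1.15 beside -0.03 over all genes. Of the 20 named Barhl1 genes 9 were higher and 2 lower, with a median of 0.39. Leaving out a pool at a time gave 11 to 15 dopamine genes and 6 to 8 Barhl1 genes higher, and without GFP negative pool 1 or pool 5 the Barhl1 count was 6. In pools, fewer cells of a type and less RNA per cell cannot be told apart.

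Ddc was 119.6 to 267 RPKM (median 187) in GFP positive pools and 19.5 to 70.4 RPKM (median 47.8) in GFP negative pools, a log2 difference of 2.15 ± 0.30 (SE, n = 6 each, limma adjusted p = 1.96e-05). Cdk14 was 57.2 to 107.5 RPKM (median 78.5) in GFP positive and 13.7 to 25.9 RPKM (median 18.5) in GFP negative pools (1.94 ± 0.22, limma adjusted p = 7.33e-07). Pitx3 was 49.2 to 127.3 RPKM (median 75.03) and Elovl3 5.66 to 14.8 RPKM (median 11.8) in GFP positive pools, and both were listed at 0 in all 6 GFP negative pools. For these genes the groups did not overlap. The Barhl1 genes Epha3 and Crnde were higher as well. Epha3 was 18.2 to 39.9 RPKM (median 26.2) in GFP positive and 5.45 to 9.98 RPKM (median 7.33) in GFP negative pools (1.76 ± 0.26, limma adjusted p = 3.3e-05). Crnde (4933436C20Rik) was 149.3 to 205 RPKM (median 176.4) in GFP positive and 26.5 to 83.1 RPKM (median 55.8) in GFP negative pools (1.75 ± 0.23, limma adjusted p = 8.51e-06).

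Magel2 and Pantr1 ran the other way. Magel2 was 32.6 to 48.6 RPKM (median 36.7) in GFP positive and 102.8 to 153.5 RPKM (median 125.01) in GFP negative pools (-1.65 ± 0.25, limma adjusted p = 5.07e-05). Pantr1 (2610017I09Rik) was 144.9 to 219 RPKM (median 176.03) in GFP positive and 378 to 571 RPKM (median 455) in GFP negative pools (-1.39 ± 0.15, limma adjusted p = 3.76e-07). Both were also common in other neurons, Magel2 in 57.99% and Pantr1 in 44.4% of them. Dlk1, Nav3, Fut8, Scn3b, B3gat1 and Nrcam did not pass the test among dopamine genes. Dlk1 was 0.34 ± 0.36 (limma adjusted p = 0.688) and Scn3b 0.33 ± 0.23 (limma adjusted p = 0.458).

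**Figure D5:**
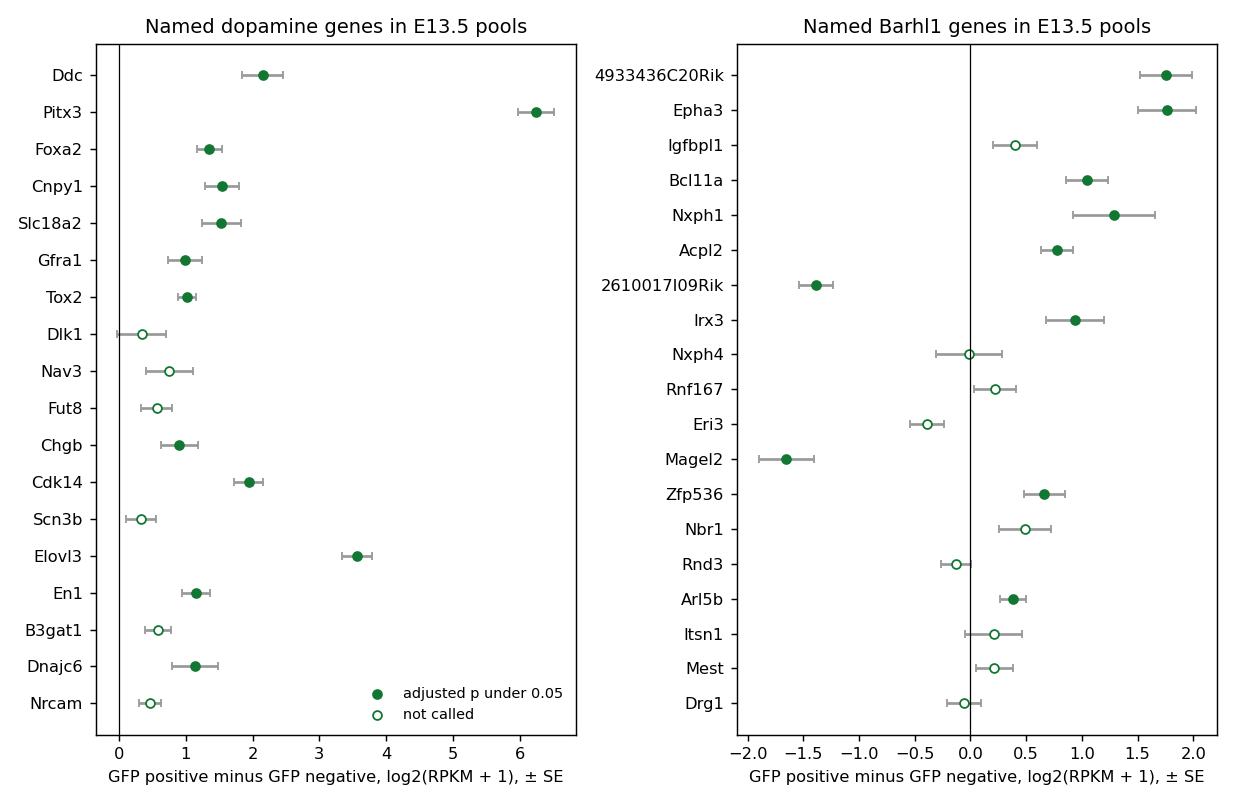
Log2 difference of E13.5 pools, GFP positive minus GFP negative of log2(RPKM + 1) (x axis, ± SE, 6 pools each), for 18 named dopamine genes (left) and 19 named Barhl1 genes (right), filled where the limma adjusted p was under 0.05. Of these dopamine genes 12 are filled and lie above 0, and of these Barhl1 genes 8 filled points lie above and 2 below 0; Pitx3 and Elovl3 were listed at 0 in GFP negative pools, so their size depends on the added 1.

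The promoters that RefSeq gave for named genes were searched on both strands for AAAGGTCA, TAATCC and TGTTTAC, the last a site of forkhead factors. The Ddc match begins at position -73 from the start and the Barhl1 match at -53, both as the reverse complement, and the Crnde match at -68 in the strand shown. Of the 22 dopamine genes searched (the 20 named, Th and Nr4a2) 17 matched the RefSeq table, with 29 promoters. AAAGGTCA was in 1 of these (3.45%), TGTTTAC in 2 (6.90%, Dlk1 and Dnajc6) and TAATCC in 0. Of the 21 Barhl1 genes (the 20 named and Barhl1) 16 matched, with 20 promoters. TAATCC was in 4 of these (20%, at starts of Barhl1, Crnde and Mest, of which 2 are overlapping windows of Mest), and the other motifs in 0. Over all 32851 promoters of the table the shares were 1.51% for AAAGGTCA, 7.06% for TAATCC and 3.65% for TGTTTAC. A match shows letters and not a bound site, and a gene with several starts adds several promoters to these counts.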

How the data were processed

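Single cells were read with Smart-seq2 libraries (Nextera XT, Illumina HiSeq, per the labels' protocols), and pools of 100 cells likewise. Reads were aligned with STAR 2.3.0 to mm10, per the submitters' processing notes, while the sources used here do not name the counter, the annotation or any read filter. The authors deposited single-cell values as log2 of RPKM plus 0.001, with zeros at -9.97, and pool values as linear RPKM. The log2 values were turned back to RPKM here. Whole reads could not be recovered, since a median of only 40.9% of low values lay within 0.05 of whole reads at the best of 1200 trial depths. Chance would place 10% there at 1 fixed depth, and the chance value for the best depth was not computed. The depth is thus unknown and no interval on a level is given. Class means of log2(RPKM + 1) were taken per stage, and the stages were weighted equally. Named genes were the 20 with the largest mean difference in each direction, among called genes at 10 RPKM in at least 30% of cells of the higher class, plus the members of 25 lists (345 genes, of which 174 passed the filter). Ebf1, Vip, Drd1 and Ptprc were not analysed here, and the values of some named genes are not reported here. The classes, markers, lists and tests were chosen with earlier results of these data known.

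Shares carry exact Clopper-Pearson 95% intervals. The E13.5 pools were tested with limma 3.58.1 (4 group means, trend, Benjamini-Hochberg adjustment) over 15871 of 23706 genes (those with 1 RPKM or more in 6 pools or more), a test added after the data had been seen. Exon overlap came from GENCODE vM21. Columns of 137 cells of E10.5 were not used. No 2 columns held identical values. Both steps recovered simulated differences before use. Python 3.11.15 (pandas 2.3.3, numpy 2.4.6, scipy 1.17.1, matplotlib 3.10.9) and R 4.3.3 were used.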

Additional observations from a re-analysis of the deposited data

Results flagged for a closer look

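The named genes and some others, such as Th, Nr4a2 and Lmx1a, were looked at in the E13.5 pools. Of 100 groups of pools 6 held a pool far from the other pools of its group, and about 1 in 20 groups would by chance. All 6 were groups of named genes. Slc18a2 reached 84.9 RPKM in 1 GFP positive pool, where the next highest had 48.5 RPKM. Fut8 was 30.97 RPKM in 1 GFP positive pool and at least 59.7 RPKM in the others. Igfbpl1 reached 201 RPKM in a GFP positive pool (next 153.6) and Rnd3 414 RPKM (next 313.5). In GFP negative pools Scn3b reached 166.9 RPKM (next 117.5) and Mest 1127 RPKM (next 723).

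Of the listed genes that passed the filter, 3 had class differences of at least 2 in size and of opposite sign at E11.5 and a later stage. The change between stages was not tested. Slc17a6, the vesicular glutamate transporter gene, was 2.29 at E11.5 and -2.45 at E13.5 (dopamine minus Barhl1, log2). Fgf13, which encodes a sodium channel modulator, was -2.60 at E11.5 and reached 4.36 later. Chrna4, a nicotinic receptor subunit gene, was -2.16 at E11.5 and reached 3.73 later. Dopamine cells of E11.5 numbered 7 and had fewer genes detected than Barhl1 cells (median 2844 and 4062.5).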

How the results depend on the processing

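The numbers of genes called moved with the settings. The named genes were chosen for large differences in these same cells, so their steadier calls are no independent support. Relative to the 405 genes higher in dopamine and 458 higher in Barhl1 cells, counts were 1.75 and 1.92 times as large with a pseudocount of 0.1, 0.264 and 0.197 with a pseudocount of 10, and 0.173 and 0.083 with a difference of at least 2. With the Barhl1 class limited to cells without Th and Nr4a2 they were 2.38 and 0.932 (965 and 427 genes, E12.5 and E13.5 only), that class was 14.7% of neurons, and Fos was -0.16, against 0.39 with all Barhl1 cells on the same stages and 1.19 over 3 stages (the cause was not tested). Cells at or above the lower quartile of genes detected gave 2.05 and 1.42 (829 and 650 genes), also on E12.5 and E13.5 only. They were 2.05 and 0.906 without E11.5, 1.29 and 1.81 without E12.5, and 1.30 and 2.28 without E13.5, with fewer signs to match. Of the 405 and 458 genes, 300 and 237 were called without E11.5. Counts stayed within 1.5 times of those reported for cells rescaled to a common sum (498 and 496), pooled over stages (564 and 393), both other gates and a Stmn2 limit of 50, both other filters, and without E12.5 titles starting with C (445 and 513). Without titles starting with F, 4 dopamine cells remain at E12.5 and no value was computed. Of 1140 values of 76 gene differences under 15 settings, 1058 stayed within the spread over stages, 81 moved and 1 reversed, Fos. In pools, other settings gave 12 to 15 named dopamine genes and 7 to 9 named Barhl1 genes higher, and leaving out each pool gave 11 to 15 and 6 to 8. No paired analysis was possible because the single cells carry no pairing label and the replicate numbers of the pools follow accession order. Few cells, above all 7 dopamine cells at E11.5, limit every class mean.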
